A study of Mus musculus with 4 samples.

Results

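The GABA-A receptor alpha and delta subunits examined here were the alpha subunits Gabra2, Gabra3, Gabra4 and Gabra5 and the delta subunit Gabrd, chosen by gene symbol. They are 5 of the 43348 genes in the files, and each symbol matched a single gene there. GABA-A receptors are chloride channels of 5 subunits that GABA opens, and they carry most fast inhibition in the forebrain. The alpha subunit that a receptor holds sets how tightly it binds GABA, how fast it closes and which drugs act on it. Receptors with alpha2 or alpha3 and a gamma subunit sit mostly at synapses, whereas receptors with alpha5 or with the delta subunit, which often joins alpha4, sit largely outside synapses and carry tonic inhibition.

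Single-cell RNA-seq (10x Genomics, 3′ ends) was made from TdTomato-positive cells of mouse frontal cortex and hippocampus at postnatal days 18 to 20. All mice carried Nkx2-1-Cre together with the Ai14 TdTomato reporter. This Cre acts in the medial ganglionic eminence (MGE), the source of SST, PVALB and many neurogliaform (NGFC) interneurons. The sort also held oligodendrocytes, glutamatergic neurons, astrocytes, microglia and other cells, and whether these are of Nkx2-1 descent was not tested. WT mice had intact Grin1 and NULL mice were littermates with both Grin1 copies floxed, so that the NMDA receptor was lost in these cells; both sexes were used and animals were pooled. Slices were digested with papain in the presence of tetrodotoxin, APV and actinomycin-D, and live cells were sorted by FACS.

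The data comprised 10 libraries, 3 WT and 2 NULL from each region, held in 4 matrices of unique molecular identifier (UMI) counts with 1 matrix per region and genotype. The 10x chemistry was version 2 in replicate 1 and version 3 in the later ones, and there was no NULL replicate 3. Total UMIs in the WT cortex were 9306756, 14212183 and 28057207 in replicates 1, 2 and 3, with 7098, 2903 and 6519 UMIs in the median cell. In the WT hippocampus they were 10555408, 8782181 and 20639002, with medians of 4411, 1479 and 5741. In NULL replicates 1 and 2 they were 1488601 and 25688337 in cortex, with medians of 6641 and 8224.5, and 3856745 and 47338167 in hippocampus, with medians of 8839 and 9508. The median NULL cell was thus deeper than the median WT cell of the same region and replicate except in cortical replicate 1, so genotype and depth cannot be fully told apart. No pair of libraries shared more than 12 cell barcodes.

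Of 26987 cells, 26201 were kept, and 12 of their 35 clusters were MGE interneurons with 10940 cells. More than 30% mitochondrial UMIs were found in 287 of 2898 cells of NULL cortical and 265 of 4436 of NULL hippocampal replicate 2 but in at most 4 cells of any other library, and these were left out, so cell quality differed with genotype in replicate 2. Class values below are counts per 1e6 UMIs (CPM) in the summed cells of a class and library, and the SST class includes a TH-expressing cluster. The sums held 900245 to 14315234 UMIs for SST, 282395 to 6560033 for PVALB and 306199 to 8811275 for NGFC, without NULL cortical replicate 1, where only 4 NGFCs were found and no sum was used. Clusters were drawn with every GABA-A receptor gene kept out of the genes used for clustering, so no subunit helped to define the cells in which it is reported. Some classes rested on different clusters in different libraries. Of the 823 SST cells of WT hippocampal replicate 2, 508 lay in cluster SST 11, whose cells are shallow (0.568 of the median UMIs of their libraries), and 512 of its 515 NGFCs lay in cluster NGFC 17, while the other NGFCs lay mostly in NGFC 6. Cluster SST 26 took 255 of its 375 cells from WT cortical replicate 1. Genotypes differed too: of the 706 SST cells of NULL cortical replicate 2, 147 lay in SST 22 and 174 in TH 13, against 33 and 94 of 624, 136 and 104 of 1154, and 58 and 176 of 1588 in WT cortical replicates 1 to 3. For SST 11, NGFC 17 and SST 26 the library and the cell type cannot be told apart. Doublets were kept, and Scrublet marked 249 cells (0.95%).

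Grin1, the deleted gene, was measured first. In SST cells it was at 153, 256 and 232 CPM in WT cortical replicates 1 to 3 and at 120.0, 175 and 158 CPM in the hippocampal ones, against 36.7 and 28.5 CPM in the 2 NULL cortical and 21.2 and 21.8 CPM in the 2 NULL hippocampal libraries. PVALB cells held 102 to 211 CPM in WT and 17.4 to 42.5 CPM in NULL libraries, and NGFCs 111 to 181 and 15.5 to 33.1 CPM. In all 3 classes every NULL library thus lay under every WT library, as the labels say, and a low level of Grin1 tags remained; whether those tags come from outside the deleted part was not tested. The log2 change in SST cells was -2.73 (SE 0.33) in cortex and -2.79 (SE 0.33) in hippocampus, with adjusted p-values of 0.0306 and 0.0261 by edgeR's quasi-likelihood test, above the threshold of 0.01 used here, and of 2.6e-12 and 7.72e-13 by DESeq2.

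Among the alpha subunits of synaptic receptors, Gabra2 was an SST gene within the interneuron classes. Its level in SST cells was 13.2, 60.3 and 39.6 CPM in WT cortical replicates 1, 2 and 3 and 26.2, 82.4 and 25.7 CPM in the hippocampal ones. The NULL libraries held 8.89 and 58.5 CPM in cortex and 20.4 and 34.7 CPM in hippocampus. Replicate 2 was the highest in each of these 4 groups and the groups overlapped throughout. Over the 6 WT libraries the mean was 41.2 ± 25.7 CPM (SD) in SST cells, 22.4 ± 15.2 in NGFCs and 12.98 ± 10.9 in PVALB cells. Neighbours in this order overlapped within their SDs, but within a library SST cells were above PVALB cells and above NGFCs in 9 of 9 libraries, and NGFCs above PVALB cells in 8 of 9. NULL cortical replicate 1, without an NGFC sum, was not counted. It went the other way, at 8.89 CPM in SST cells (8 UMIs) and 10.6 CPM in PVALB cells (3 UMIs).

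Within the SST class, Gabra2 was highest in a few clusters. Of its 1334 UMIs in WT cells of the class, 445 were in SST 22, 228 in TH 13 and 661 in the other SST clusters. In the Chodl-expressing cluster SST 22, a class of nitric oxide synthase cells known for long-range projections, pooled WT cells held 153 CPM (95% Poisson interval 139 to 168), and this cluster was the highest of all in 6 of the 6 libraries that had enough of its cells. When pooled, SST 11 with 74.7 CPM (59.2 to 92.9) and TH 13 with 66.1 CPM (57.8 to 75.2) came next, but 508 of the 736 WT cells of SST 11 are from hippocampal replicate 2, and within libraries SST 11 was among the upper 2 clusters in only 3 of 8 and TH 13 in 7 of 9. With clustering at resolution 0.6 the TH cluster was wider and held 41.4 CPM. Intervals of pooled values cover counting error only, not the spread between animals. The other SST clusters were lower, from 35.7 CPM (31.8 to 40.0) in SST 2 down to 10.1 (8.05 to 12.4) in SST 5 and 3.45 (1.58 to 6.54) in SST 26. Among PVALB clusters the large cluster PVALB 1 was at 10.96 CPM (9.05 to 13.2), under the Pthlh-expressing cluster PVALB 25 at 25.4 CPM (17.6 to 35.5). The NULL cells kept Chodl-expressing cells at the top, at 102 CPM (91.5 to 113), and the mean over single libraries of both genotypes was 151 ± 77.0 CPM (SD, n = 6).

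Gabra3, the other synaptic alpha subunit here, shared SST cells as its top class with Gabra2. It differed from Gabra2 in the order of the other classes by their means. SST cells held 61.0, 78.1 and 67.4 CPM in the 3 WT cortical and 104, 64.0 and 80.6 CPM in the 3 WT hippocampal libraries, and the NULL libraries lay between 58.7 and 88.6 CPM. PVALB cells lay between 43.8 and 60.3 CPM over the 6 WT libraries, with a median of 49.6 CPM, and NGFCs between 7.07 and 50.6 CPM, with a median of 21.6 CPM. SST and PVALB ranges of WT libraries did not overlap, and those of PVALB cells and NGFCs did. The WT means were 75.9 ± 15.9, 51.0 ± 5.87 and 24.9 ± 14.4 CPM, and SST cells were the highest class in 9 of 9 libraries.

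Within the SST class, Gabra3 was close across most clusters. SST 9, 5, 2, 26 and 11 held 82.7 (75.8 to 90.1), 79.2 (73.4 to 85.3), 79.1 (73.2 to 85.3), 73.9 (63.9 to 85.1) and 70.0 CPM (55.1 to 87.7), with overlapping intervals, and TH 13 held 64.6 CPM (56.4 to 73.7), under SST 9. Chodl-expressing SST 22 cells, the highest for Gabra2, were the lowest of all 12 clusters for Gabra3 when pooled, at 11.7 CPM (8.11 to 16.4), and the lowest in 3 of 6 libraries. PVALB 1 held 58.0 CPM (53.5 to 62.8) and Pthlh-expressing PVALB 25 15.7 CPM (9.71 to 24.0), which overlaps SST 22. Across the 21 WT sums of 1 region and 1 cluster with at least 30 cells, Pearson's r between log2 levels of Gabra2 and Gabra3 was -0.36; these sums share libraries and differ in depth, so r is a description.

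Gabra4, which often pairs with the delta subunit, was highest in PVALB cells among the interneuron classes. Their levels were 73.1, 123 and 105 CPM in WT cortical replicates 1 to 3, 75.8, 70.6 and 99.4 CPM in the hippocampal ones, 77.9 and 83.7 CPM in NULL cortex and 70.8 and 93.6 CPM in NULL hippocampus. The 4 groups overlapped. WT means were 91.1 ± 21.2 CPM in PVALB cells, 73.1 ± 6.10 in NGFCs and 60.1 ± 12.6 in SST cells, and the ranges of neighbouring classes overlapped. Within a library, PVALB cells were above SST cells in 9 of 9 libraries, above NGFCs in 8 of 9, and NGFCs above SST cells in 7 of 9. By coordinates of the RefSeq annotation on GRCm38.p6, Gabra4 (chromosome 5, 71569734 to 71658308) overlaps Gabrb1 (71657921 to 72149572) by 388 bases, so its counts are uncertain if reads from the overlap were split.

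The 2 main PVALB clusters stood at opposite ends for Gabra4. PVALB 1, which expresses Tac1 and Pvalb, held 115 CPM (108 to 122), the highest of the 12 clusters, and was on top in 6 of 10 libraries. PVALB 25, with Pthlh, held 19.4 CPM (12.7 to 28.4), the lowest, and was last in 6 of 8 libraries. Between them SST 9 held 87.3 CPM (80.2 to 94.9), TH 13 79.1 (70.0 to 89.1), NGFC 6 71.9 (64.8 to 79.7) and SST 22 33.8 (27.4 to 41.1). NULL cells gave 124 CPM (115 to 134) in PVALB 1 and 18.9 CPM (13.8 to 25.2) in PVALB 25.

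Gabrd, the delta subunit of extrasynaptic receptors, was high in PVALB cells and NGFCs. In PVALB cells it was at 157, 152 and 243 CPM in WT cortical replicates 1 to 3 and at 52.5, 43.0 and 108 CPM in the hippocampal ones, with 205 and 169 CPM in NULL cortex and 48.7 and 117 CPM in NULL hippocampus. NGFCs held 81.6, 113 and 191 CPM in the WT cortical and 23.3, 48.2 and 131 CPM in the WT hippocampal libraries. In SST cells the same libraries held 50.7, 35.5 and 70.6 CPM, and 7.34, 6.45 and 39.9 CPM. WT replicate 3 was the highest in every class and region, and cortex was above hippocampus in every class and WT replicate. WT means were 126 ± 74.6 CPM in PVALB cells, 98.1 ± 60.5 in NGFCs and 35.1 ± 24.96 in SST cells, overlapping within their SDs, while PVALB cells and NGFCs were each above SST cells in 9 of 9 libraries and PVALB cells above NGFCs in 7 of 9 (5 with GABA-A genes among the features, 6 with the stricter cell filter).

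**Figure D1:**
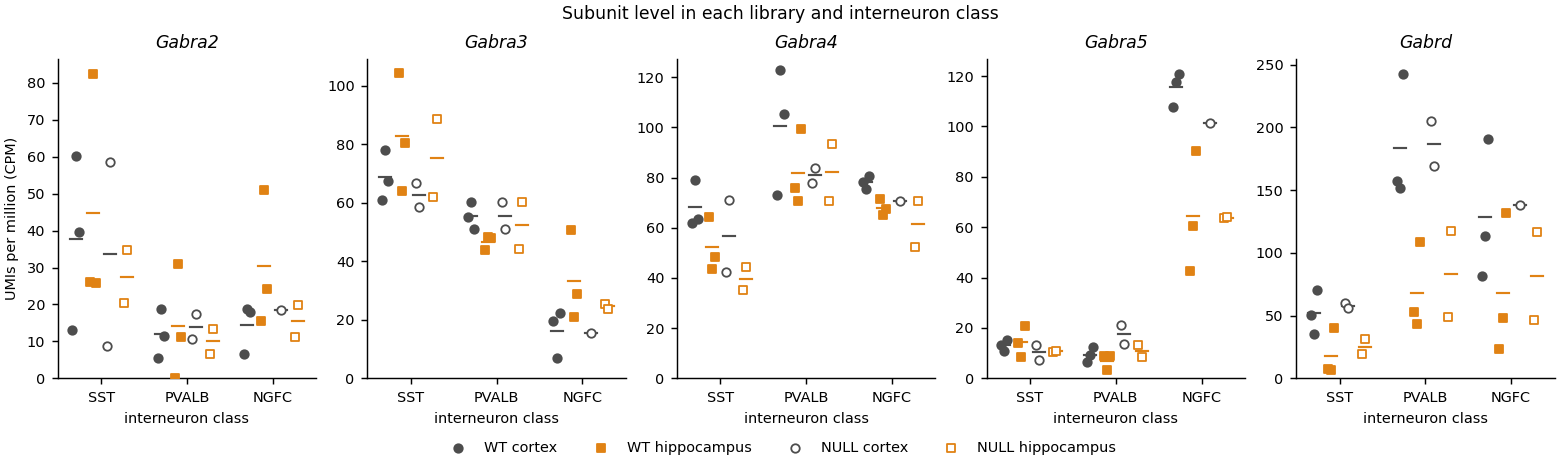
Each panel plots 1 subunit in CPM in the summed SST, PVALB and NGFC cells of each library; filled symbols are WT and open ones NULL, circles are cortex and squares hippocampus, short lines are group means, and the NULL cortical NGFC sum of 4 cells is left out. Gabra5 stood apart in NGFCs, at 42.8 to 121 CPM against at most 21.2 CPM in the other classes, and Gabrd of WT PVALB cells was at 152 to 243 CPM in cortex and 43.0 to 108 CPM in hippocampus.

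Clusters high for Gabrd were found in all 3 classes. All PVALB clusters had it, at 195 CPM (187 to 204) in PVALB 1, 167 (146 to 191) in PVALB 25 and 128 (94.0 to 171) in the Crabp1-expressing PVALB 30. TH 13 held 182 CPM (168 to 197), or 123 CPM at resolution 0.6, unlike any SST cluster it was summed with. NGFC 6 was at 118 CPM (109 to 128). The SST clusters proper ran from 61.4 CPM (55.5 to 67.9) in SST 9 through 46.4 (41.9 to 51.2) in SST 2 to 8.43 (5.28 to 12.8) in SST 26 and 2.41 (0.97 to 4.97) in SST 22, so that Gabrd was close to nil in the cells with the most Gabra2. Within libraries PVALB 25 was the highest cluster in 7 of 8 and TH 13 among the upper 2 in 7 of 9. Pooled order and order within libraries thus differed for PVALB 1, which took 431 and 610 of its 1365 WT cells from cortical replicates 2 and 3 and whose mean over libraries of both genotypes was 117 ± 77.5 CPM (n = 10), under the 177 ± 66.2 CPM (n = 8) of PVALB 25 and the 168 ± 78.7 CPM (n = 9) of TH 13, though within their SDs.

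Gabra5, the alpha subunit of tonic receptors that is best known from hippocampal pyramidal cells, was an NGFC gene among the interneurons. NGFCs held 108, 118 and 121 CPM in WT cortical replicates 1 to 3, 42.8, 60.5 and 90.2 CPM in the hippocampal ones, 101 CPM in the NULL cortical library and 63.7 and 64.0 CPM in the 2 NULL hippocampal ones. In SST cells all 10 libraries lay between 7.43 and 20.8 CPM, and in PVALB cells between 3.44 and 21.2 CPM. The NGFC range did not touch that of the other classes. WT means were 90.0 ± 32.1 CPM in NGFCs, 13.8 ± 4.20 in SST cells and 8.20 ± 3.05 in PVALB cells, the latter pair overlapping within their SDs, and NGFCs were above both other classes in 9 of 9 libraries. The annotation of Gabra5 is not free of overlap either, so its counts carry the same uncertainty as those of Gabra4.

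Both NGFC clusters carried Gabra5. NGFC 6 held 91.5 CPM (83.4 to 100.2) in WT cells and was the highest cluster in 8 of 8 libraries, and NGFC 17 held 60.4 CPM (47.5 to 75.7), nearly all of it from WT hippocampal replicate 2. TH 13 came next with 32.8 CPM (27.0 to 39.4), above SST 9 at 19.4 CPM (16.1 to 23.1). In SST 22 no UMI of Gabra5 was found among 2903353, which allows up to 1.27 CPM (upper bound of the Poisson interval), and 2 UMIs were found in the NULL cells of this cluster (0.588 CPM, 0.0712 to 2.12).

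**Figure D2:**
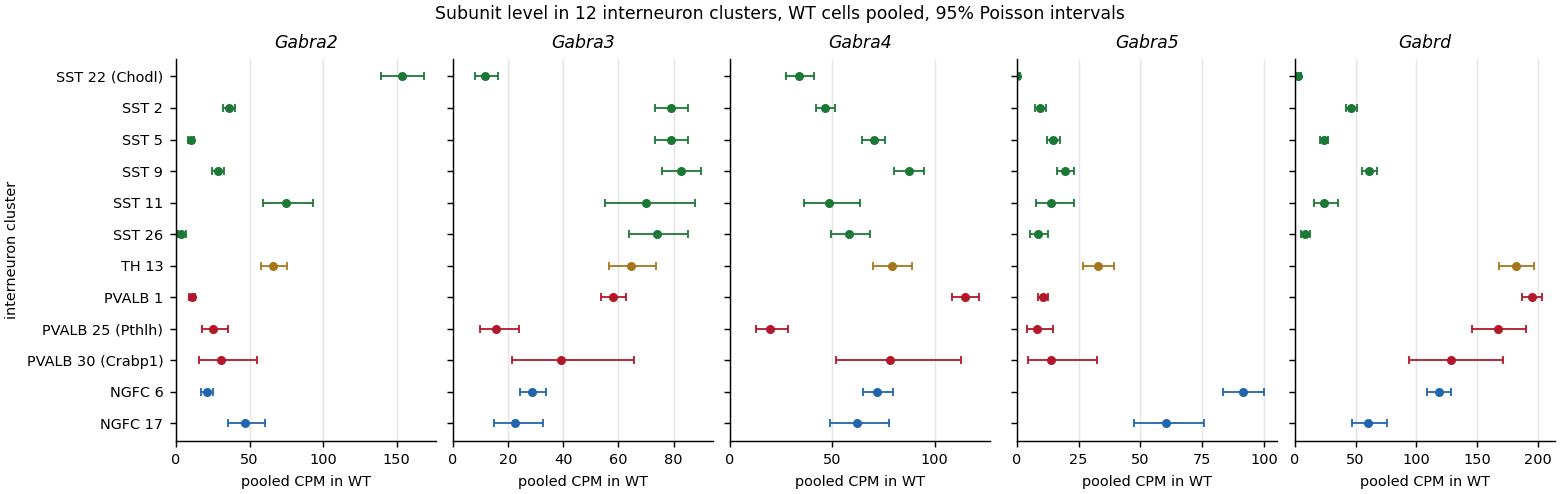
Pooled WT level (CPM) of each subunit in the 12 interneuron clusters, 1 panel per subunit, with 95% Poisson intervals that cover counting error only and colors that mark SST, TH, PVALB and NGFC clusters. SST 22 was the highest for Gabra2 (153 CPM) and the lowest for Gabra3 (11.7 CPM), Gabra5 (0 CPM) and Gabrd (2.41 CPM), and PVALB 1 and PVALB 25 were far apart for Gabra4 (115 and 19.4 CPM).

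The share of cells with at least 1 UMI gave the same order of classes for most subunits. Among 4822 WT SST cells (median 6339 UMIs), 17.8% had a Gabra2 UMI and 35.2% a Gabra3 UMI; among 1634 PVALB cells (median 6772 UMIs), 46.1% had Gabra4 and 53.8% Gabrd; and among 1327 NGFCs (median 3531 UMIs), 26.2% had Gabra5. In 5946 WT oligodendrocytes (median 3495.5 UMIs), which were taken to lack these receptors, the shares were 0.151% for Gabra2, 0.471% for Gabra3, 0.235% for Gabra4, 0.135% for Gabra5 and 0.572% for Gabrd. These shares were read as background, and whether they come from free RNA in the droplets, doublets or low expression was not tested. With each cell thinned to 1000 UMIs, which left out 266 SST cells, 27 PVALB cells, 146 NGFCs and 654 oligodendrocytes, the shares were 3.91% and 7.28% for Gabra2 and Gabra3 in SST cells, 9.56% and 15.0% for Gabra4 and Gabrd in PVALB cells and 7.80% for Gabra5 in NGFCs, against 0.0318%, 0.124%, 0.0415%, 0.136% and 0.0443% in oligodendrocytes. The lowest share in an interneuron class, 0.933% for Gabra5 in thinned PVALB cells, was thus still above that of oligodendrocytes. Of the 250 WT cells of SST 22 (median 10132 UMIs), 74.0% (95% Wilson interval 68.2 to 79.0) had a Gabra2 UMI and 14.6% did after thinning, while 0 of 250 had a Gabra5 UMI.

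Region was compared in the 6 WT libraries. In SST cells 0 of the 5 subunits passed edgeR's test (adjusted p under 0.01 with a change of 0.144 or more on the log2 scale), 1 had an unadjusted p under 0.05, and DESeq2 called 0; of all genes tested, 0.0418% were called. In PVALB cells 0 of 4 subunits were called, 1 at an unadjusted p under 0.05 and 0 by DESeq2, with 0% of all genes called, and Gabra5 was too low to be tested. In NGFCs 0 of 5 were called, 1 at an unadjusted p under 0.05 and 0 by DESeq2, again with 0% of all genes. These counts ignore the pairing of libraries by replicate number, and values with the replicate number as a block are given below. The median log2 change, hippocampus minus cortex, was 0.08 for the subunits and 0.02 for all genes in SST cells, -0.26 and 0.02 in PVALB cells and -0.17 and 0.01 in NGFCs.

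Gabrd had the largest change in SST and PVALB cells, and in NGFCs it came after Gabra2 and Gabra3. From the values given above, its log2 change was -1.41 in PVALB cells (SE 0.36, edgeR unadjusted p = 0.00263, adjusted p = 0.381), -1.56 in SST cells (SE 0.61, edgeR unadjusted p = 0.0318, adjusted p = 0.544) and -0.89 in NGFCs (SE 0.55, edgeR unadjusted p = 0.136, adjusted p = 1). PVALB libraries of the 2 regions did not overlap, whereas SST and NGFC ones did, through hippocampal replicate 3. In PVALB cells 2 of 4 subunits, Gabrd and Gabra3, had no overlap between regions, as 9% of all genes did; in SST cells 0 of 5 did, against 13% of all genes. For Gabra3, however, PVALB 1 held 59.1 CPM (46.7 to 73.9) in hippocampus and 57.9 (53.1 to 63.0) in cortex, while PVALB 25, low in Gabra3, had 80 of the 188 PVALB cells of hippocampal replicate 2 and 67 of the 511 of cortical replicate 2.

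Libraries of the same replicate number deviated together, and with the replicate number as a block Gabrd was called in 2 classes, where 343 of 11957 genes (SST) and 85 of 8877 genes (PVALB) were called. Its log2 change was then -1.47 in PVALB cells (SE 0.21, edgeR adjusted p = 0.000274) and -1.82 in SST cells (SE 0.30, edgeR adjusted p = 0.000909), and -1.02 in NGFCs (SE 0.27, edgeR adjusted p = 0.206). Between libraries of replicates 1, 2 and 3 the log2 differences, with 1 CPM added, were -1.56, -1.80 and -1.16 in PVALB cells, -2.63, -2.29 and -0.81 in SST cells and -1.76, -1.21 and -0.54 in NGFCs, all 9 negative. NULL libraries gave -2.05 and -0.53 in PVALB cells, -1.57 and -0.83 in SST cells and -0.24 in the only NGFC pair. Over all settings tried, edgeR or DESeq2 adjusted p-values ran from 0.000274 to 0.9997 in PVALB cells and from 0.000909 to 0.9994 in SST cells. Without a filter on low counts Gabrd also passed in PVALB cells (-1.48, edgeR adjusted p = 0.00153). The SST value moved to -2.97 without WT hippocampal replicate 3, and the NGFC value to -1.77 without that library, -0.47 without WT cortical replicate 3 and -0.50 without WT hippocampal replicate 1.

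Lower Gabrd in hippocampus was also seen inside clusters. In WT cells it was lower in hippocampus in 9 of 9 clusters with at least 30 cells in each region, and the intervals were apart in 8 of them. PVALB 1 held 66.0 CPM (52.8 to 81.5) in hippocampus and 213 (204 to 223) in cortex, SST 2 held 13.1 (8.99 to 18.3) and 60.3 (54.3 to 66.8), and SST 5 held 0.696 (0.0176 to 3.88) and 28.7 (24.9 to 32.9). The differences were smaller in TH 13, at 129.9 (106 to 157) and 199 (182 to 217), and in NGFC 6, at 109 (98.9 to 120.2) and 145 (125 to 167). The exception was SST 26, with 0 UMIs in hippocampus (upper bound 7.76 CPM) and 10.3 CPM (6.46 to 15.6) in cortex. Taken by replicate, 22 of 22 cluster pairs were lower in hippocampus, but the pairs of a replicate share the same libraries and are not independent. In NULL cells 8 of 8 clusters were lower, 4 with intervals apart, and 13 of 15 replicate pairs.

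**Figure D3:**
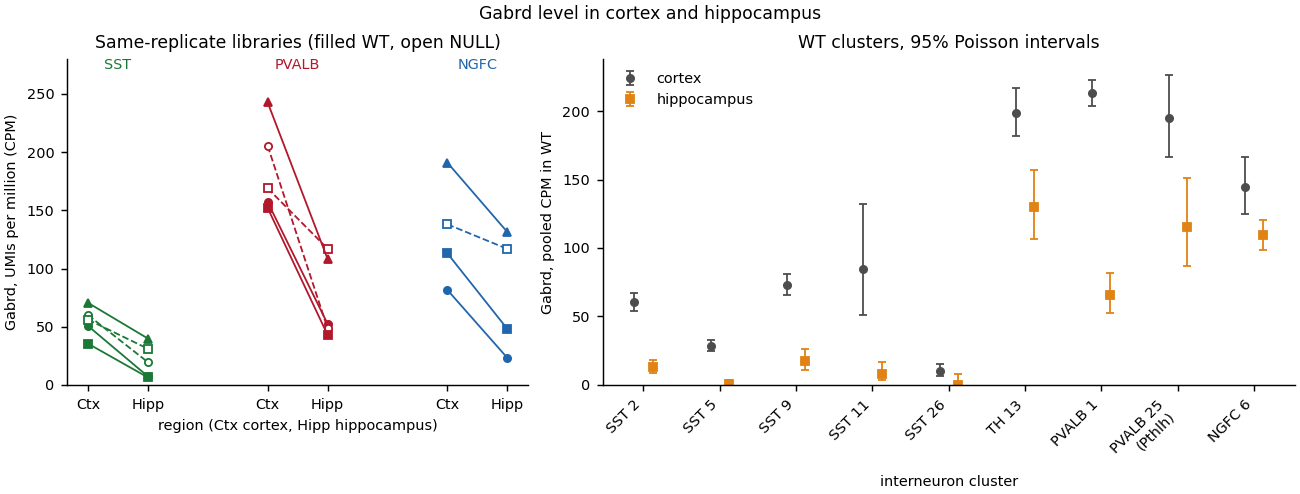
For Gabrd, the left panel joins the cortical (Ctx) and hippocampal (Hipp) class sums (CPM) of the same replicate, with circles, squares and triangles for replicates 1, 2 and 3, filled for WT and open with dashed lines for NULL, and the right panel gives the pooled WT level (CPM) of 9 clusters in each region with 95% Poisson intervals. Every line falls to the right, and 8 of the 9 clusters have intervals that lie apart.

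Among the alpha subunits, Gabra5 of NGFCs had the clearest gap between regions. Its WT cortical libraries (108 to 121 CPM) lay above its hippocampal ones (42.8 to 90.2 CPM), with a log2 change of -0.80 (SE 0.33, edgeR unadjusted p = 0.0372, adjusted p = 1), and -1.31, -0.95 and -0.42 within replicates 1, 2 and 3. Gabra4 of NGFCs did not overlap between regions either (75.4 to 80.6 and 65.2 to 71.3 CPM) but differed by only -0.17 (SE 0.29); these 2 of 5 subunits compare with 6.87% of all genes. In NGFC 6 alone, without NGFC 17, Gabra5 was at 81.1 CPM (72.2 to 90.7) in hippocampus and 121 (103 to 141) in cortex of WT cells, and at 64.8 (59.7 to 70.2) and 104 (85.4 to 124) in NULL cells. In the other clusters the intervals of the 2 regions overlapped for Gabra5, and 5 of 9 WT clusters, NGFC 6 included, were lower in hippocampus.

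For the other alpha subunits the sign differed between clusters. Gabra4 was lower in hippocampal SST cells (-0.44, SE 0.24, edgeR unadjusted p = 0.0943), with intervals apart in SST 9, at 40.7 CPM (30.5 to 53.2) against 99.5 (90.9 to 109), and in SST 2, at 35.6 (28.6 to 43.8) against 50.9 (45.3 to 56.9), but higher in TH 13, at 106 (84.6 to 130.3) against 70.8 (61.0 to 81.7). NULL cells gave 44.8 CPM (36.4 to 54.6) in hippocampus and 111 (96.3 to 128) in cortex for SST 9. Gabra2 went the other way in SST 2 and TH 13, higher in hippocampal SST 2 cells at 49.1 CPM (40.8 to 58.5) against 30.2 (25.9 to 34.9) and lower in TH 13 at 38.9 (26.6 to 54.9) against 74.6 (64.5 to 85.8). NULL cells had 42.8 (37.7 to 48.3) and 20.1 CPM (13.1 to 29.4) in SST 2, and 24.0 (16.3 to 34.1) and 67.5 CPM (57.3 to 79.0) in TH 13. Summed over SST cells, Gabra2 changed sign with the library left out, from 0.21 (SE 0.60) to -0.62 without WT hippocampal replicate 2 and to -0.19 without WT cortical replicate 1. Gabra3 was higher in hippocampus in NGFC 6, at 32.8 CPM (27.3 to 39.2) against 17.2 (10.9 to 25.8), and in SST 26, at 128 (98.2 to 165) against 61.8 (51.7 to 73.3), and Gabra2 and Gabra3 of all NGFCs gave log2 changes of 1.05 (SE 0.55) and 0.998 (SE 0.51). The former was 0.36 with NGFC 6 alone and 0.44 without WT hippocampal replicate 2, whose NGFCs are nearly all of NGFC 17, and the latter 0.61 without WT hippocampal replicate 1 and 0.63 without WT cortical replicate 2.

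Loss of Grin1 was compared with WT next, in a model of the 4 groups of region and genotype per class. By edgeR 0 of 5 subunits passed in cortex and 0 of 5 in hippocampus in each of SST cells, PVALB cells and NGFCs, 0 had an unadjusted p under 0.05, and DESeq2 called 0. With the replicate block edgeR again called 0, but 4 changes, given below, had an unadjusted p under 0.05. The share of all genes called by edgeR was 0% in both regions for SST cells and for NGFCs, 0.0102% in cortical PVALB cells, where Spp1 was the only gene, and 0% in hippocampal ones. Nor did the genotype change differ between regions for any subunit, with 0 of 5 called, 0 at an unadjusted p under 0.05 and 0 by DESeq2 in each class, and 0% of all genes called in SST cells, PVALB cells and NGFCs. Since Grin1 itself missed the threshold with edgeR, these counts do not show that the subunits were alike in the 2 genotypes.

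Most genotype changes of SST cells were smaller than their SEs, save for Gabra5 in both regions and Gabra4 in hippocampus. In SST cells the log2 changes, NULL minus WT, were -0.01 (SE 0.71) in cortex and -0.63 (SE 0.73) in hippocampus for Gabra2, -0.13 (SE 0.27) and -0.10 (SE 0.27) for Gabra3, and -0.22 (SE 0.28) and -0.36 (SE 0.28) for Gabra4. For Gabra5 they were -0.49 (SE 0.41) and -0.42 (SE 0.40), and for Gabrd 0.15 (SE 0.58) and 0.49 (SE 0.61). The lowest adjusted p by edgeR was 1 in cortex and 0.969 in hippocampus, and the medians were -0.13 and -0.36 for the subunits and -0.02 and -0.03 for all genes. No subunit separated NULL from WT libraries, whereas 16.1% of all genes did in cortex and 17.6% in hippocampus. Cortical Gabra2 of SST cells was not stable, from -2.05 without NULL cortical replicate 2 to 0.62 without NULL cortical replicate 1, and changed sign in 13 of 25 refits. Hippocampal Gabra2 became 0.18 without WT hippocampal replicate 2, and hippocampal Gabrd 1.41 with the replicate block (SE 0.46, edgeR unadjusted p = 0.0112, adjusted p = 0.374; 1.30 and 2.11 within replicates 1 and 2), 1.94 without WT hippocampal replicate 3, 0.13 without replicate 2 or 0.14 without replicate 1 of that group, and 0.14 without NULL hippocampal replicate 2. Cortical Gabrd was -0.64 when the TH cluster was left out. With the replicate block it was 0.67 (SE 0.38), with 0.24 and 0.65 within replicates 1 and 2. In pooled cortical cells of SST 2 it was at 30.9 CPM (22.1 to 42.1) in NULL and 60.3 (54.3 to 66.8) in WT. SST 9 held 33.9 (25.9 to 43.6) and 72.9 (65.6 to 80.7). SST 11 went the other way, at 132 (70.2 to 225) and 84.6 (50.9 to 132). Replicate 3, the highest WT replicate for Gabrd, gave 349 of the 730 WT cortical cells of SST 2 and 263 of the 543 of SST 9. It has no NULL counterpart, so these pooled gaps cannot be told apart from differences between libraries.

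Where each genotype had at least 2 libraries, Gabra5 of cortical PVALB cells was the only subunit without overlap between genotypes. It was at 21.2 and 13.6 CPM in NULL cortex and at 6.32, 9.25 and 12.5 CPM in WT cortex, a log2 change of 0.64 (SE 0.47, edgeR adjusted p = 1), of 0.95 with the replicate block (SE 0.44, edgeR unadjusted p = 0.0492, adjusted p = 0.719) and of 1.60 and 0.51 within replicates 1 and 2. This 1 of 5 subunits compares with 20.1% of all genes in cortex. The Crabp1-expressing cluster PVALB 30 held 57 of 257 PVALB cells in NULL cortical replicate 2 and 7 of 28 in replicate 1, and without it the change was 0.23, as it was at clustering resolution 0.6; it was 1.17 without NULL cortical replicate 2 and 0.99 without WT cortical replicate 3. In PVALB 30 pooled NULL cells held 21.8 CPM (13.8 to 32.6) and WT cells 14.0 (4.53 to 32.6), while PVALB 1 held 10.9 (8.19 to 14.2) and 10.6 (8.70 to 12.7). In hippocampus 0 of 5 subunits separated the genotypes, against 14.3% of all genes. The other changes in PVALB cells lay between -0.43 (Gabra2 in hippocampus, SE 0.72) and 0.42 (Gabra5 in hippocampus, SE 0.58), with medians of 0.02 in cortex and 0.19 in hippocampus beside -0.01 for all genes in both. With the replicate block, hippocampal Gabra2 was -0.72 (SE 0.57). Hippocampal Gabra5 was then 0.79 (SE 0.57), with 0.55 and 1.08 within replicates 1 and 2. Gabrd was 0.74 there (SE 0.35, edgeR unadjusted p = 0.0551), with -0.11 and 1.42 within replicates 1 and 2. The genotypes also differed in PVALB clusters: of the 257 PVALB cells of NULL cortical replicate 2, 125 lay in PVALB 1 and 75 in PVALB 25, against 431 and 67 of 511 in WT replicate 2. Gabra4, at -0.30 (SE 0.29) in the cortical class, was at 113 CPM (98.1 to 129) in NULL and 115 (108 to 122) in WT cortical cells of PVALB 1. Gabrd of the same cells was lower in NULL, at 148 CPM (131 to 167) against 213 (204 to 223) in WT. In cortical PVALB 25 it went the other way, at 226 (197 to 259) in NULL and 195 (167 to 227) in WT, with overlapping intervals. Of the 1156 WT cortical cells of PVALB 1, 610 were from replicate 3, the highest WT replicate for Gabrd, which has no NULL counterpart. In the class sums, cortical Gabrd was higher in NULL by 0.38 and 0.15 on the log2 scale within replicates 1 and 2. The pooled gap in PVALB 1 thus cannot be told apart from a difference between libraries.

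In NGFCs the cortical comparison rested on 1 NULL library, assumed to vary like the others, and its changes lay between -0.19 (Gabra5, SE 0.45) and 0.28 (Gabra2, SE 0.73). In hippocampus the largest was Gabra2, at 11.3 and 20.0 CPM in the NULL and 15.6, 51.0 and 24.3 CPM in the WT libraries, a log2 change of -0.87 (SE 0.52, edgeR adjusted p = 0.957) and of -0.97 with the replicate block (SE 0.43, edgeR unadjusted p = 0.0415, adjusted p = 0.366). The groups overlapped, and the change was -0.22 with NGFC 6 alone, -0.30 without WT hippocampal replicate 2 and -1.36 without NULL hippocampal replicate 2. No subunit separated the genotypes there, against 19% of all genes. Gabra5, the NGFC subunit, differed by -0.01 (SE 0.35) in hippocampus and Gabrd by 0.28 (SE 0.59). With the replicate block Gabrd differed by 0.98 (SE 0.35, edgeR unadjusted p = 0.0158, adjusted p = 0.293), with 0.97 and 1.26 within replicates 1 and 2, and the sign turned without NULL hippocampal replicate 2 (-0.50) or WT hippocampal replicate 1 (-0.11). Medians were -0.09 in cortex and -0.11 in hippocampus for the subunits, beside -0.01 and -0.04 for all genes. Pooled NULL cells of NGFC 6 held 68.9 CPM of Gabra5 (64.0 to 74.2) and WT cells 91.5 (83.4 to 100.2), but 698 of the 790 NULL and 481 of the 751 WT cells were hippocampal, and within a region the gap was smaller.

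The partner list held 27 other genes of GABA-A receptors, namely pore subunits, scaffold and auxiliary proteins, and trafficking proteins. By edgeR 0 partners passed in any comparison, of 24 tested in SST cells, 23 in PVALB cells and 21 in NGFCs for genotype, and of 24, 22 and 20 for region. At an unadjusted p under 0.05 there was 1 partner by region in SST cells, 1 by region in NGFCs and 1 by genotype. The last was Shisa7, an auxiliary protein, by genotype in cortical PVALB cells (0.71, SE 0.33, unadjusted p = 0.0463, edgeR adjusted p = 1). The genotype change of Shisa7 in PVALB cells also differed between regions by -1.05 (SE 0.48, edgeR unadjusted p = 0.046, adjusted p = 1). Median partner changes ran from -0.14 to 0.07 across the 6 genotype comparisons and from 0.00 to 0.04 across the 3 region ones.

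Some partners followed the classes in which the subunits were high. Gabrg1, a gamma subunit, was at 37.8 ± 22.1 CPM in WT SST cells (SD, n = 6) and at 4.68 ± 3.88 and 3.85 ± 4.13 in PVALB cells and NGFCs, the same top class as Gabra2, its neighbour on chromosome 5. Gabrg3 was at 299.7 ± 73.3 CPM in NGFCs, 150.2 ± 41.0 in PVALB cells and 63.5 ± 10.9 in SST cells, with NGFCs on top as for Gabra5, which lies 20453 bases away on chromosome 7. The scaffold protein gephyrin (Gphn) was alike in SST cells, PVALB cells and NGFCs, at 49.7 ± 16.7, 46.3 ± 13.8 and 51.8 ± 18.4 CPM. Gabra6 had 0 UMIs in the 3 WT classes.

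The genes whose levels were most like those of each subunit were found among 9232 genes over the same 21 WT sums, by Pearson's r of log2(CPM + 1). For Gabra2 they were S100pbp (r = 0.805), Pde4b (0.744) and Ptn (0.711), and for Gabra3 Igsf3 (0.918), Gng13 (0.887) and Klhl14 (0.878). Gabra4 was most like Bola1 (0.792), Wdr55 (0.760) and Kcnip4 (0.758), and Gabrd like RP24-227F14.1 (0.901), Zfp804a (0.882) and Sh3rf3 (0.880). Among the genes most like Gabra5 were Hdac5 (0.839) and Rgs7bp (0.831), and Gabrg3, which has no overlap with Gabra5, gave 0.739. Gabrd gave only 0.20 with Gabra4 and 0.54 with Gabra5. The sums share libraries and differ in depth, and no p-value is given.

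By position, the 5 genes lie on 4 chromosomes: Gabrd on chromosome 4 (155384979 to 155398098), Gabra2 (70958392 to 71095849) with Gabra4 on 5, Gabra5 on 7 (57407669 to 57591016) and Gabra3 on X (72432676 to 72656919). The 2 neighbours on chromosome 5 did not share a pattern, with r of -0.29 between Gabra2 and Gabra4 over the 21 sums. Between Gabra2 and Gabrg1, 115774 bases apart, r was 0.66.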

How the data were processed

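The authors aligned reads to mm10 with Cell Ranger (2.1.1 per the labels, while the matrix headers name a later version) and deposited unscaled UMI counts, pooling the libraries of a region and genotype. Barcode suffixes told these libraries apart, and the cell numbers in the methods gave their replicate. A cell was kept if it had from 200 up to 6000 genes and less than 30% of its UMIs from mitochondria. Seurat 5.3.0 (R 4.3.3) integrated the matrices on 2000 features, none of them a GABA-A receptor gene, and clustered at resolution 1.0. Without this exclusion, 10 GABA-A receptor genes that included the 5 subunits would have been among the 2000. A cluster was named by at least 3 markers at 20 CPM, unless its median UMIs were under 0.333 of those of its libraries and no marker was among its 10 top genes, or markers of SST and cholinergic cells were mixed; this left 4 clusters unnamed, among them cluster 24 with 412 cells. Other steps used scanpy 1.11.5, pandas 2.3.3, scipy 1.17.1 and numpy 2.4.6 in Python 3.11.15.

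Sums per library and class (at least 10 cells) were tested with edgeR 4.0.16 (TMM, filterByExpr, quasi-likelihood, Benjamini-Hochberg over all genes), which was tried on simulated data first. A gene passed at an adjusted p under 0.01 and 0.144 on the log2 scale. P-values measure the spread between libraries of pooled animals. Deviations of same-numbered WT libraries from the mean of their region correlated across 11957 genes at 0.705, 0.635 and 0.401 in SST cells, across 8877 genes at 0.551, 0.568 and 0.328 in PVALB cells and across 7876 genes at 0.566, 0.508 and 0.226 in NGFCs, so the numbers were taken as pairs.

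The subunits and lists were chosen with earlier results of these data known. Named were the 5 subunits, partner genes, Grin1 and the 3 genes most like each subunit; Spp1 was named after its values were seen. Alternatives tried were DESeq2 1.42.0, a threshold of 0.05 on the adjusted p, scaling by library size, no filter, the replicate block, a model of the 2 compared groups alone and sums from at least 20 cells. Further ones were GABA-A genes among the features, resolutions 0.6 and 1.4, a stricter cell filter (1000 genes or more, no more than 10% from mitochondria), removal of doublets, SST cells without the TH or Chodl cluster, PVALB cells without the Crabp1 cluster and each library left out. SST cells without SST 11 and NGFC 6 alone were added after seeing the data. Some results for partner genes are not reported here.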

Additional observations from a re-analysis of the deposited data

How the results depend on the processing

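The 59 subunit changes were refitted 1300 times, and 98 refits changed the sign, 65 of them with a library left out. No refit called a partner gene or, save for Gabrd by region, a subunit. One subunit (Gabrd) was called by region, 1 in SST cells with the replicate block and 1 in PVALB cells with the block or without a filter; the block changed no other subunit call. The cause of the differences was not tested.

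Genes called at an adjusted p of 0.05 were 1 in SST cortex, 1 in SST hippocampus, 37 for SST region, 10 in PVALB cortex and 11 for PVALB region. DESeq2 called 2, 2 and 139 in the SST comparisons, 13, 1 and 28 in the PVALB ones, and 1 (hippocampus) and 7 (region) in NGFCs. With no filter SST comparisons gave 22, 19 and 155, PVALB ones 53, 20 and 102 and NGFC ones 4, 20 and 33, and 1 and 4 for the difference of genotype changes in SST and PVALB cells. The replicate block gave 343 for SST region, 5 for PVALB cortex, 85 for PVALB region and 11 for NGFC region. Only the 2 groups gave 13 in PVALB cortex, and GABA-A genes among the features and resolution 1.4 gave 3 each for PVALB region. With a library left out the counts ran from 0 to 5 for SST region, 0 to 7 for PVALB cortex and 0 to 1 for PVALB region.

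Signs turned most often for Gabra2 in cortical SST cells (13 of 25 refits, -2.05 to 0.62), Gabra4 in hippocampal PVALB cells (9 of 23, -0.18 to 0.17) and Gabra5 in hippocampal NGFCs (6 of 23, -0.25 to 0.27), all with changes near 0 at first. Signs of larger changes turned, among others, for Gabrd in cortical SST cells (-0.64 without the TH cluster; -0.0749 to 0.45 with a library left out), Gabra2 in cortical NGFCs (-0.26 with the replicate block), and, as ranges with a library left out, Gabra5 in cortical SST cells (-0.85 to 0.0369), Gabrd in hippocampal NGFCs (-0.50 to 1.16) and Gabra2 in hippocampal SST (-1.06 to 0.18) and PVALB cells (-1.15 to 0.61) and by region in SST (-0.62 to 0.67) and PVALB cells (-0.74 to 0.70).

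The planned split of NGFCs by Reln was not run because both clusters carry Reln. All 100 class levels refitted under other settings stayed within 1 SD. The 90 refitted with a library left out could not leave that range by construction, so they say nothing on stability. The TH cluster at resolution 0.6 held 41.4 CPM of Gabra2 and 123 of Gabrd, and all 20 thinned detection shares moved. NULL libraries were few and mostly deeper, cortical NULL NGFCs came from 1 library, and WT hippocampal replicate 2, at 1479 UMIs in the median cell, is where shallow cells limit class values. Genotype changes of the size of these standard errors could not be detected here.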

Other observations

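Outside the interneurons, the subunits were also measured in the other sorted cells of WT mice. Glutamatergic neurons held 156 ± 92.0 CPM of Gabra5, 122 ± 26.1 of Gabra4, 91.3 ± 39.9 of Gabra2, 56.4 ± 37.5 of Gabrd and 43.6 ± 11.3 of Gabra3 (SD, n = 5 libraries). Their Gabra5 was at 79.5 to 141 CPM in cortex and 154 and 310.2 CPM in hippocampus, in the 2 libraries with enough such cells (85 in all). Astrocytes had Gabra2 at 45.4 ± 39.9 CPM and Gabra4 at 25.95 ± 27.4 CPM (n = 6), from 44 and 24 UMIs, whereas Gabra3, Gabra5 and Gabrd were at 0.446, 1.44 and 1.44 CPM, near the oligodendrocyte values of 1.48, 0.346 and 1.77 CPM. Oligodendrocyte precursors had Gabra3 at 16.6 ± 6.27 CPM and Gabra2 at 7.27 ± 6.58 CPM (n = 6), and Gabra5 and Gabrd at 0.426 and 0.921 CPM. In 207 WT microglia 1 UMI of Gabra4 was found and none of the other 4.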
